A study of Mus musculus with 15 samples.

Results

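The 9 genes described here encode 5 matrix metalloproteinases (Mmp2, Mmp3, Mmp9, Mmp14 and Mmp15) and the 4 tissue inhibitors of metalloproteinases (Timp1 to Timp4). They were taken by gene symbol from the count table of the series, and all 9 of them were found among its 40481 genes. The sequenced tissue was the mouse RPE/choroid complex, meaning the retinal pigment epithelium (RPE) and the vascular choroid that supplies it. The study asked how ablating senescent cells affects this tissue in mice with drusenoid deposits under the retina. Control mice (7 libraries) were Abca1/Abcg1 flox/flox with LysM-Cre, so the floxed cholesterol efflux transporter genes are deleted where the myeloid gene Lyz2 drives Cre. INK-ATTAC mice (8 libraries) carried the same alleles plus a transgene in which the p16Ink4a promoter drives a fusion of FKBP with caspase 8. The drug AP20187 joins the fusion proteins and kills cells that use that promoter. Both groups are labelled as given AP20187 by the intraperitoneal route, and for the INK-ATTAC mice the dosing is described as lasting 3 months. No group without the floxed alleles, without Cre or without the drug is analysed here. Neither the animals' age nor whether libraries are separate animals is stated in the labels, and p-values therefore measure the spread between these libraries, which may be technical.

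Matrix metalloproteinases are zinc proteases that cut collagens, laminins, proteoglycans and elastin, and most are made as inactive precursors. TIMPs bind the active site and block it, and Timp3 differs from the other TIMPs in staying bound to the extracellular matrix. In the eye TIMP3 is a known component of Bruch's membrane, the matrix sheet between the RPE and the choroid, and mutations of the human gene cause Sorsby fundus dystrophy. Mmp2 and Mmp9 are the gelatinases, Mmp3 is stromelysin-1, and Mmp14 and Mmp15 are anchored in the cell membrane. Mmp14 activates the Mmp2 precursor on the cell surface in a complex that includes Timp2.

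Library totals ranged from 39121503 to 65065950 counts. All 8 RPE markers checked were detected, with a summed level of 63640 to 95660 counts scaled to library size (CPM) over the 15 libraries. Control 2 and INK-ATTAC 2 stood apart from the other libraries. Control 2 had the lowest level of the 15 libraries for the marker lists of fibroblasts, skeletal muscle, lens, adipocytes and of cartilage and sclera. It was also the library in which most genes, 49 of 12893 genes averaging log2 CPM 1 or more, lay at least 1 log2 unit below all others. INK-ATTAC 2 followed with 43, and no other library had more than 4. Mmp3 was lowest in control 2, so its level, spread, group difference and gene correlations are given with and without that library. INK-ATTAC 2 was the lowest library for Mmp2 and Mmp14. For the group difference it was left out only when each library was dropped in turn. In bulk tissue, fewer cells of a type and less RNA per cell cannot be told apart.

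Promoters of 4 genes are printed because these genes give the highest and lowest spread over the 15 libraries (Mmp3, through control 2, and Timp3) and a pair whose levels moved together (Mmp15 and Timp2). Each runs from 250 bases before to 50 bases after the start annotated in RefSeq, 5′ to 3′, in GRCm38.p6. Gene positions given below come from the GENCODE annotation, whose starts can differ. The Timp2 window lies wholly inside the GENCODE gene (118301069 to 118355740). Promoters of 7 of the 9 genes were found in the set of RefSeq promoters used here, and none was found there for Mmp2 or Mmp9. Capitals mark the AP-1 motif TGANTCA, the TATA motif TATAAA and the GC box GGGCGG, each searched on both strands.
Mmp3 promoter, chr9:7445572-7445871, plus strand: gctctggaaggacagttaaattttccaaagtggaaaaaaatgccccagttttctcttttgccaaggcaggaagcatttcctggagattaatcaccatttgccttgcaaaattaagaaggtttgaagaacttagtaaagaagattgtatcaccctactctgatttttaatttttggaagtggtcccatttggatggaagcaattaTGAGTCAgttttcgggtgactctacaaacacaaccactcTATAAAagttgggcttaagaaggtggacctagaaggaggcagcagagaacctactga
Timp3 promoter, chr10:86300162-86300461, plus strand: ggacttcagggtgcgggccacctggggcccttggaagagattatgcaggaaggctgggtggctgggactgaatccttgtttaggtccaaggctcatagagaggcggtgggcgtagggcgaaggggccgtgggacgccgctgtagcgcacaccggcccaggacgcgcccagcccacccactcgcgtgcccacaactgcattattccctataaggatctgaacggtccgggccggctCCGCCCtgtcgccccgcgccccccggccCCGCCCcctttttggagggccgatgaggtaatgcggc
Mmp15 promoter, chr8:95352046-95352345, plus strand: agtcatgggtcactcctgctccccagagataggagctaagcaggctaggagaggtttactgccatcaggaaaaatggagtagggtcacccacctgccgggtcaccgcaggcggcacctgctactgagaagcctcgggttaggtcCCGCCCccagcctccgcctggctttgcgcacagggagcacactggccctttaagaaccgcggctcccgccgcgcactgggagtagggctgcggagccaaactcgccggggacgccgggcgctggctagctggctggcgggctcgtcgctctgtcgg
Timp2 promoter, chr11:118355362-118355661, minus strand: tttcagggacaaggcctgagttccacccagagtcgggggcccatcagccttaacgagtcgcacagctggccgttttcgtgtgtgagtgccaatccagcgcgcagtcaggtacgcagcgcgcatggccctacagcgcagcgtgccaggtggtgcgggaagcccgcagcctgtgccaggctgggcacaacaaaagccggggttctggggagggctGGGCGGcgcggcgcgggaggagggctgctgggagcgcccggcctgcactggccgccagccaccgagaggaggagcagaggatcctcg
The Mmp3 window held 1 AP-1 motif, whose first base lies at -46 from the annotated start, and 1 TATA motif at -7. It was the only one of the 7 matched windows with either motif, while 7.81% of the 32851 promoters of the same length held the AP-1 motif and 13.6% the TATA motif. The Timp3 window held 2 GC boxes, at -15 and 14, and the Mmp15 and Timp2 windows held 1 each. Of all promoters 35.7% held a GC box, and the Mmp3 window held none. The Timp3, Mmp15 and Timp2 windows were 67.0%, 66.0% and 68.7% G and C against a median of 52.7% over all promoters, and the Mmp3 window lay below that median. The Ets motif AGGAAG, not in capitals, was also searched on both strands: the Mmp3 and Timp3 windows held 1 each, the Mmp15 and Timp2 windows 0, and 35.4% of all promoters at least 1. No motif found in these 4 windows overlapped another. The motif matches describe these letters only.

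Levels are compared between genes as CPM per kb of exon, on library sizes scaled by the trimmed mean of M-values (TMM). Mmp3 (473 ± 197, SD, n = 15) and Timp3 (458 ± 48.2) were the most abundant of the 9 genes. Mmp3 exceeded Timp3 in 9 of 15 libraries, so their order did not hold beyond the spread. Without control 2 Mmp3 averaged 503 ± 165 and Timp3 456 ± 49.2 (SD, n = 14), with Mmp3 above Timp3 in 9 of 14 libraries. Timp2 followed at 51.3 ± 10.4 CPM per kb, Timp1 at 19.4 ± 3.11, Mmp2 at 15.1 ± 3.51 and Mmp14 at 7.23 ± 2.88. Timp4 (1.65 ± 0.38), Mmp15 (0.896 ± 0.243) and Mmp9 (0.147 ± 0.072) were lowest. The neighbours Timp3 and Timp2, Timp2 and Timp1, Mmp14 and Timp4, and Mmp15 and Mmp9 did not overlap over the 15 libraries. Timp1 lay above Mmp2 in 13 of 15 libraries, and Mmp2 above Mmp14 and Timp4 above Mmp15 in all 15, with overlapping ranges. Per-kb levels rest on merged exon lengths, from 0.888 kb for Timp1 to 8.14 kb for Timp3, and some orders depend on them. In CPM, without division by length, Timp3 (2939 to 4509) lay above Mmp3 (96.1 to 1488) with no overlap. Mean Timp1 (17.2 CPM) then lay below mean Mmp2 (50.9 CPM).

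**Figure D1:**
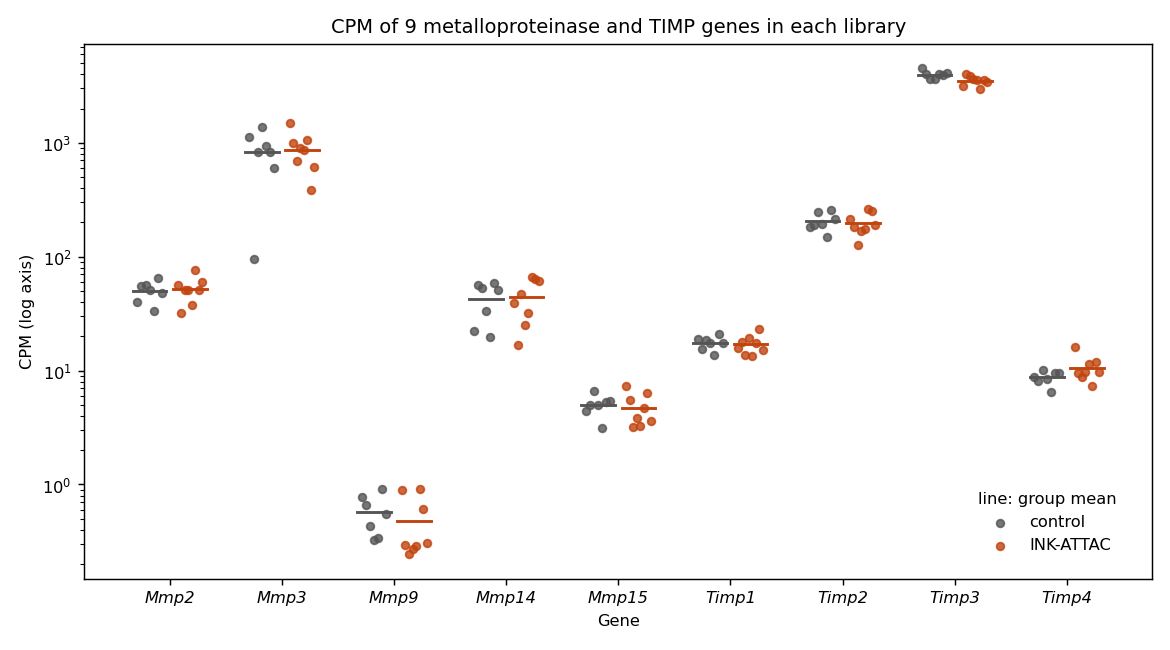
CPM (log axis) of each gene in every library, grey for the 7 control and orange for the 8 INK-ATTAC libraries, with a line at each group mean. The groups overlap for all 9 genes, and control 2 lies far below the other libraries for Mmp3 (96.1 CPM against 385 to 1488).

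None of the 9 genes passed the test between the groups, which was edgeR's quasi-likelihood test with Benjamini-Hochberg adjustment over 17991 genes. Of all genes tested 0 passed (0%), and 745 had an unadjusted p under 0.05 (4.14%), 1 of the 9 genes among them. DESeq2 called 6 genes in all, limma-voom 0 and limma-voom with sample quality weights 2, and none of these was a metalloproteinase or TIMP named here. The median log2 fold change, INK-ATTAC against control, was -0.04 over the 9 genes and -0.00097 over all genes tested, with 4 of the 9 above 0 and 5 below. Group ranges did not overlap for 0 of the 9 genes and for 4 of all genes tested (0.0222%).

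Timp3 was the member of lowest p. The gene lies on chromosome 10 from 86300372 to 86349506 (GRCm38, plus strand). Its level in controls ran from 3637 CPM through a median of 3986 to 4509, and in INK-ATTAC libraries from 2939 through 3543 to 4016. In 5 of 8 INK-ATTAC libraries it lay below every control, and 2 of 7 controls lay above every INK-ATTAC library. The means were 3974 ± 296 CPM (SD, n = 7) and 3521 ± 352 CPM (SD, n = 8). Its log2 fold change was -0.17 (SE 0.07, unadjusted p = 0.0211, edgeR adjusted p = 1.00). Its sign held in all 29 alternatives, from -0.21 to -0.14, with adjusted p between 0.640 and 1.00. Libraries of high Xist, the RNA of the inactive X chromosome (4 per group), gave -0.22 and those of low Xist (7 in all) -0.14. The same classes differed in sign for Mmp3 (-0.40 high, 1.13 low), Mmp14 (0.51, -0.45), Mmp2 (0.185, -0.10) and Timp2 (0.12, -0.27). Mmp9 (-0.04, -0.67), Mmp15 (-0.09, -0.16) and Timp1 (-0.02, -0.09) were below 0 in both classes. These class values rest on few libraries and were not tested. In the authors' deposited table Timp3 had a log2 fold change of -0.20, with limits of -0.34 and -0.06 and an adjusted p of 0.653.

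Levels of markers of other tissues stand beside this value, and none of these genes passed the test. All 6 skeletal muscle markers and all 5 tested lens markers had higher means in INK-ATTAC libraries, 4 and 3 of them at an unadjusted p under 0.05. Their summed levels overlapped between groups, at 163 to 1283 CPM in controls and 417 to 1952 in INK-ATTAC libraries for muscle, and 1.20 to 764.5 and 3.05 to 3508 for lens. None of the markers of either list was at 0 in every library. With the muscle level in the edgeR model Timp3 gave -0.17 (unadjusted p = 0.0529) and with the lens level -0.21 (unadjusted p = 0.0132), and the part of either tissue in the Timp3 value was otherwise not tested. Other lists lay on the side of Timp3, with 0 of 6 mast cell markers (median log2 fold change -0.37), 0 of 6 rod markers (-0.29), 0 of 5 neutrophil markers (-0.14), 0 of 5 melanocyte markers (-0.07) and 0 of 7 macrophage markers (-0.03) above 0. RPE markers had 5 of 8 above 0 with a median of 0.05, and with the rod level in the model Timp3 gave -0.19. In the remaining lists, 3 of 3 adipocyte markers (median 0.60), 4 of 5 Schwann cell markers (0.10) and 1 of 4 cartilage and sclera markers (-0.11) were above 0. Above 0 were also 4 of 6 pericyte and smooth muscle markers (0.013), 4 of 7 endothelial markers (0.0012) and 3 of 6 fibroblast markers (-0.012).

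Timp4 had the largest fold change upward of the 9 genes. It is a TIMP best known from the heart and lies on chromosome 6 from 115241892 to 115252205, minus strand. Control libraries ran from 6.49 CPM through 8.83 to 10.2, and INK-ATTAC libraries from 7.34 through 9.72 to 16.1. INK-ATTAC 1 was the highest, and 3 INK-ATTAC libraries lay above every control. The means were 8.71 ± 1.22 CPM (SD, n = 7) and 10.6 ± 2.66 CPM (SD, n = 8). Its log2 fold change was 0.28 (SE 0.14, unadjusted p = 0.0694, edgeR adjusted p = 1.00). Without INK-ATTAC 1 it fell to 0.16, and over all 29 alternatives it stayed above 0 with adjusted p between 0.676 and 1.00. High and low Xist libraries gave 0.24 and 0.25.

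Timp1 and Timp2, the other two inhibitors, differed by less than the spread. Timp1, an inducible soluble TIMP on chromosome X from 20870166 to 20874735, ran from 13.7 CPM through 17.4 to 21.01 in controls and from 13.6 through 16.7 to 23.0 in INK-ATTAC libraries. Its log2 fold change was -0.04 (SE 0.12). It averaged 4.10 ± 0.27 log2 CPM in high Xist libraries and 4.09 ± 0.19 in low Xist libraries (SD, n = 8 and 7). Timp2, which both inhibits Mmp2 and helps to activate it, lies on chromosome 11 from 118301069 to 118355740, minus strand. It ran from 149.6 CPM through 192.2 to 257 in controls and from 127 through 185 to 262 in INK-ATTAC libraries, a log2 fold change of -0.06 (SE 0.14). The sign of both turned in at least 1 alternative, so no direction is drawn.

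Of the TIMP genes, 3 lie inside genes of the synapsin family on the opposite strand, Timp1 in Syn1, Timp3 in Syn3 and Timp4 in Syn2, and the strand setting of the counting is not given in the sources used here. Syn1 counts were 3.07% of those of Timp1, Syn3 counts 0.14% of those of Timp3 and Syn2 counts 8.37% of those of Timp4. Timp3 shares 1733 exon bases with Syn3 (21.3% of its exon length), Timp4 shares 90 with Syn2, and Timp1 shares 0 with Syn1. Cep295nl lies within Timp2 on the same strand with 0 shared exon bases and 0.115% of its counts.

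**Figure D2:**
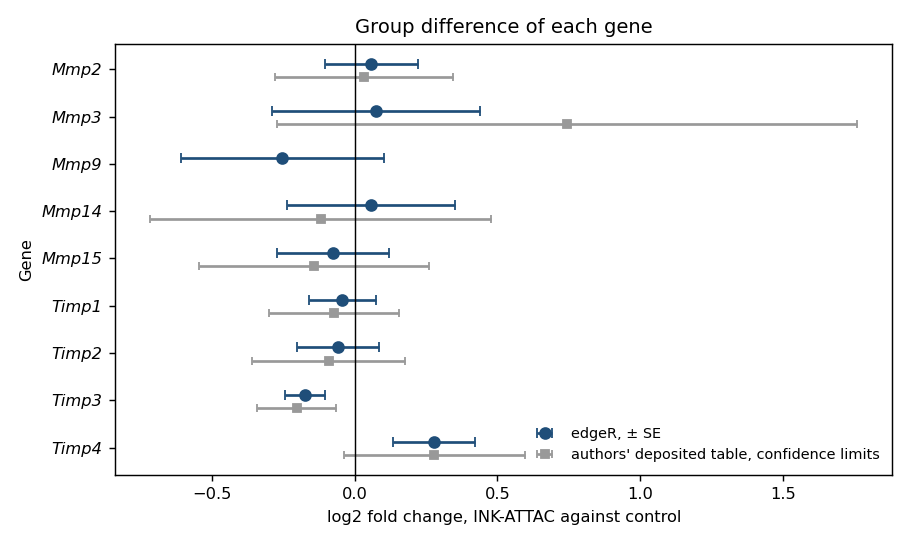
Log2 fold change of each gene, INK-ATTAC against control, from edgeR with SE bars (blue circles) and from the authors' deposited table with its confidence limits (grey squares; 8 of the 9 genes). Timp3 (-0.17) and Timp4 (0.28) are the genes whose SE bars lie away from 0, and Mmp3 is the gene with the widest gap between the edgeR value (0.08) and the authors' deposited table (0.74).

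Mmp3 varied most of the 9 genes over the 15 libraries, but only through control 2. It cuts many matrix proteins, activates other metalloproteinase precursors and lies on chromosome 9 from 7445822 to 7455975, plus strand. Controls ran from 96.1 CPM in control 2 through a median of 838 to 1374 in control 4, and INK-ATTAC libraries from 385 in INK-ATTAC 7 through 879 to 1488 in INK-ATTAC 1. The highest library was 15.5-fold above the lowest. The SD of its log2 CPM, 0.95, exceeded that of 98.9% of genes averaging log2 CPM 1 or more, while that of Timp3, 0.15, exceeded 24.3%. Without control 2 the highest library was 3.87-fold above the lowest and the SD fell to 0.51, above that of 93.8% of genes. That SD is below those of Mmp14 (0.68) and Mmp9 (0.67) in the same 14 libraries. The groups overlapped, with a log2 fold change of 0.08 (SE 0.36, unadjusted p = 0.837, edgeR adjusted p = 1.00). Without control 2 the value was -0.14, without INK-ATTAC 1 it was -0.09, and with the skeletal muscle level in the model it was -0.69 (unadjusted p = 0.0402, edgeR adjusted p = 0.857, with adjusted p from 0.857 to 1.00 over the alternatives). The muscle fit kept control 2, the lowest library for both Mmp3 and the muscle level, and was not run without it. The authors' deposited table gave 0.74 with limits of -0.27 and 1.76, and limma-voom with sample quality weights here gave 0.69. The size and sign of the group difference in Mmp3 thus depend on the fit.

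In control 2 Mmp3 held 4627 counts, 9.14-fold below the median of the other 14 libraries in CPM. The other 8 genes showed no drop of that size there. Their log2 CPM lay between 0.25 below and 0.74 above the median of the other libraries, with Timp4 the third lowest of 15 and Mmp14, Mmp9 and Timp3 each the 11th. Mmp10, the stromelysin gene nearest in kind to Mmp3 and also in the metalloproteinase cluster of chromosome 9, was lowest there as well, at 0.81 CPM against 2.61 to 8.88 in the other libraries. The collagenase gene Mmp13 of the cluster was lowest there too, at 0.75 CPM against 0.93 to 3.28. So was Mmp12, the macrophage elastase gene, but only just, at 100.7 CPM against 101.1 to 187 elsewhere. Mmp8, a neutrophil collagenase gene of the cluster, was at 3.14 CPM, inside the range of 1.79 to 4.83 of the others. The matrix genes Dpt (0.85 CPM against 5.28 to 49.6) and Sfrp4 (6.48 against 28.8 to 161) and the muscle myosin gene Myh1 (2.58 against 21.1 to 70.05) were also among the 8 genes furthest below all other libraries in control 2. These genes were chosen after their values were seen, and the part of other tissue in the low Mmp3 value was not tested.

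**Figure D3:**
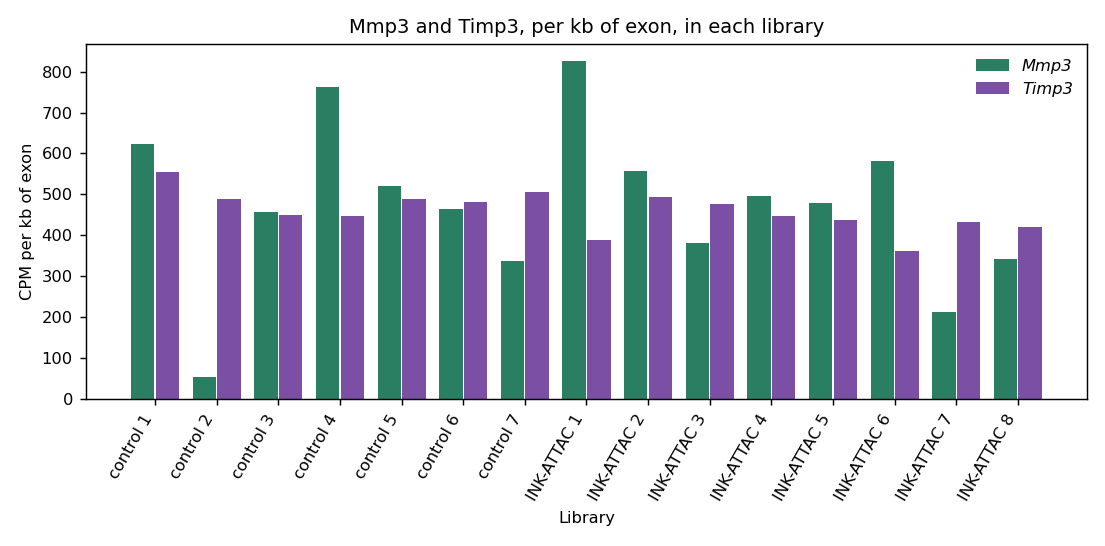
Level of Mmp3 (green) and Timp3 (purple) in CPM per kb of exon for each of the 15 libraries, on a linear axis from 0. Timp3 stays between 361 and 554 while Mmp3 ranges from 53.4 in control 2 to 826 in INK-ATTAC 1.

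The share of TIMP transcripts was highest where Mmp3 was lowest and lowest where Mmp3 was highest. Mmp3 is part of the sum that this share divides by, so this order follows largely from the arithmetic. The 4 TIMPs made up 56.4 ± 15.2% of the summed CPM per kb of the 9 genes in controls (SD, n = 7) against 51.1 ± 10.02% with the transgene (SD, n = 8), a difference of -5.27 percentage points within the spread. The lowest share was 35.3% in INK-ATTAC 1 and the highest 87.4% in control 2. These shares depend on the division by exon length, since in CPM Timp3 averaged 3733 and Mmp3 852. Timp3 made up 80.4 to 90.6% of the 4 TIMPs and Mmp3 88.7 to 97.7% of the 5 metalloproteinases, apart from 66.5% in control 2. Without control 2 the group difference in the TIMP share was -0.10 percentage points. No test is given for these shares, since the genes were chosen with earlier results known.

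Mmp2, Mmp14 and Mmp15 overlapped between the groups. Mmp2, gelatinase A, lies on chromosome 8 from 92827291 to 92853420. It ran from 33.1 CPM through 51.2 to 65.3 in controls and from 32.1 through 51.2 to 75.7 in INK-ATTAC libraries, a log2 fold change of 0.06 (SE 0.16). Mmp14 lies on chromosome 14 from 54431612 to 54445364 and ran from 19.6 CPM through 50.95 to 59.3 in controls and from 16.6 through 43.4 to 66.4 in INK-ATTAC libraries, a log2 fold change of 0.06 (SE 0.30). Both were lowest in INK-ATTAC 2 and highest in INK-ATTAC 6, with Mmp14 3.99-fold apart. Mmp15, the membrane-bound relative of Mmp14, lies on chromosome 8 from 95352268 to 95375080 and ran from 3.14 CPM through 4.94 to 6.67 in controls and from 3.18 through 4.26 to 7.36 in INK-ATTAC libraries, with a log2 fold change of -0.08 (SE 0.20). The signs of these 3 turned in at least 1 alternative, and Mmp14 gave 0.53 with the skeletal muscle level in the model (unadjusted p = 0.103, edgeR adjusted p = 0.857, with adjusted p from 0.817 to 1.00 over the alternatives). All 3 had an edgeR adjusted p of 1.00.

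Mmp9, gelatinase B, a protease stored in neutrophil granules, had the lowest counts of the 9 genes. It lies on chromosome 2 from 164940780 to 164955850 and held 12 to 60 counts per library. It ran from 0.33 CPM through 0.55 to 0.90 in controls and from 0.24 through 0.30 to 0.92 in INK-ATTAC libraries, and 5 of 8 INK-ATTAC libraries lay below every control. INK-ATTAC 1, 6 and 7 did not, and its log2 fold change was -0.25 (SE 0.36, unadjusted p = 0.485, edgeR adjusted p = 1.00). Over the 28 alternatives that tested it the value ran from -0.54 to -0.11, with adjusted p between 0.882 and 1.00. Neutrophil markers summed to 14.2 to 23.3 CPM in controls and 13.2 to 18.6 CPM in INK-ATTAC libraries, and 5 of 7 were tested.

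Correlations across the 15 libraries were computed for all 36 pairs of the 9 genes on log2 CPM, with p from 100000 permutations adjusted over the pairs. By Pearson's r, 4 pairs passed, and the share of passing pairs over all genes was not computed. The closest pair was Mmp2 and Mmp14, with r = 0.852 (permutation p = 8e-05, adjusted p = 0.00288) and rho = 0.857 (permutation p = 1.4e-04, adjusted p = 0.00504). It held at 0.911 within controls, 0.813 within INK-ATTAC libraries and 0.715 without the 2 libraries farthest from the median of Mmp2. The other 3 pairs all included Timp2. By rho, Timp2 also passed with Mmp2 (rho = 0.746, permutation p = 0.00196, adjusted p = 0.0235) and with Mmp14 (rho = 0.729, permutation p = 0.0029, adjusted p = 0.0261), whose r values of 0.585 and 0.569 did not pass (permutation p = 0.0222 and 0.0273, adjusted p = 0.0999 and 0.109). Mmp15 with Timp2 gave r = 0.748 (permutation p = 0.00137, adjusted p = 0.0247) and rho = 0.682 (permutation p = 0.00622, adjusted p = 0.0448), and r = 0.607 without the 2 farthest libraries. Mmp9 with Timp2 gave r = 0.707 (permutation p = 0.00345, adjusted p = 0.0414) and rho = 0.771 (permutation p = 0.0011, adjusted p = 0.0198), with 0.427 within controls, 0.840 within INK-ATTAC libraries and 0.577 without the 2 farthest libraries. Timp1 with Timp2 gave r = 0.681 (permutation p = 0.00551, adjusted p = 0.0496) but rho = 0.525 (permutation p = 0.048, adjusted p = 0.174), and its adjusted p was 0.0569 when the libraries were scaled by the DESeq2-type method.

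Timp3, Timp4 and Mmp3 passed with no other of the 9 genes by r or rho. Timp4 had its highest value with Mmp15 (r = 0.519, permutation p = 0.0448, adjusted p = 0.161; rho = 0.479, permutation p = 0.0729, adjusted p = 0.202). Timp3 had its most negative value with Mmp2 (r = -0.590, permutation p = 0.0203, adjusted p = 0.0999; rho = -0.596, permutation p = 0.0212, adjusted p = 0.127), at -0.483 within controls and -0.795 within INK-ATTAC libraries. Mmp3 correlated with none of the other 8 genes past the threshold, from -0.423 with Mmp14 to 0.164 with Timp4. Without control 2 its values ran from -0.477 with Mmp14 to 0.151 with Mmp9, and those with Timp1 (-0.235) and Timp4 (-0.0418) turned negative. Every pair was measured in the same libraries, which differ in depth and in marker levels, and the part of either in these correlations was not tested. Genes outside the 9 reached higher r than any pair among them. The highest over 11960 genes were 0.981 for Mmp14 (with Ptprs) and 0.974 for Mmp3 (with Mmp10). Timp2 reached 0.948 (with Atp2a2) and Mmp2 0.931 (with S1pr2). Timp4 reached only 0.826 (with Nme4), below the 0.852 of Mmp2 with Mmp14.

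**Figure D4:**
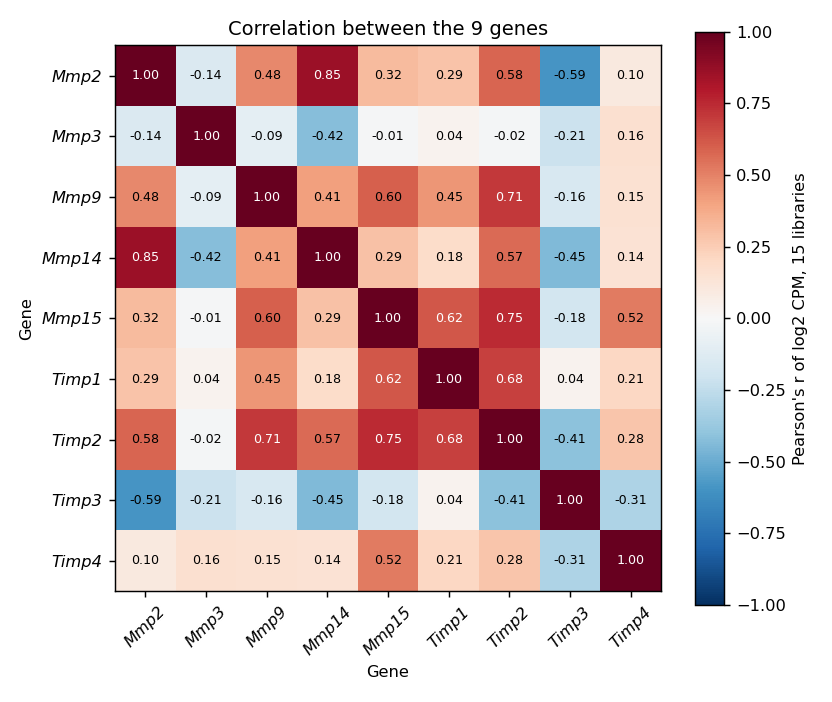
Pearson's r of log2 CPM over the 15 libraries for every pair of the 9 genes, from blue (negative) to red (positive). The darkest pair off the diagonal is Mmp2 with Mmp14, Timp2 is red with Mmp9, Mmp15 and Timp1, and the Mmp3 and Timp3 rows are pale or blue.

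Each gene was also set against 14 marker levels, 126 relations in all, of which 4 passed by Pearson's r and none of these 4 by Spearman's rho. The share of such relations that would pass over all genes was not computed. Mmp14 followed the pericyte and smooth muscle level (r = 0.826, permutation p = 1e-04, adjusted p = 0.0126; rho = 0.718, permutation p = 0.0032, adjusted p = 0.150) and the endothelial level (r = 0.800, permutation p = 3e-04, adjusted p = 0.0189; rho = 0.693, permutation p = 0.00559, adjusted p = 0.176). Without the 2 farthest libraries these were 0.637 and 0.731. Timp1 followed the cartilage and sclera level (r = 0.760, permutation p = 0.00102, adjusted p = 0.0387; rho = 0.721, permutation p = 0.00356, adjusted p = 0.150), at 0.804 without control 2 and control 3. Mmp3 followed the skeletal muscle level (r = 0.738, permutation p = 0.00123, adjusted p = 0.0387; rho = 0.657, permutation p = 0.00974, adjusted p = 0.245). Its r was 0.791 within controls and 0.86 within INK-ATTAC libraries, and dropped to 0.505 without control 2 and control 7. The fibroblast level gave r = 0.723 with Mmp3 (permutation p = 0.00869, adjusted p = 0.156), which rested on control 2 and control 4, since without them it was 0.181. Timp3 followed none of the 14 levels past the threshold, and its r with the RPE level was 0.214 (permutation p = 0.441, adjusted p = 0.749).

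Among 11960 genes averaging log2 CPM 1 or more, leaving out predicted and clone-based names, the 3 most like each gene over the 15 libraries were taken by Pearson's r, as a description. Mmp3 was most like Mmp10 (r = 0.974), Ooep (0.959) and Angptl7 (0.959), a secreted angiopoietin-like protein gene. Without control 2 these were 0.910, 0.924 and 0.913, and Ooep (1.29 against 2.21 to 10.4 CPM) and Angptl7 (33.0 against 90.1 to 552 CPM) were lowest in control 2 as well. Mmp14 was most like Ptprs (0.981), the nuclear lamin gene Lmna (0.974) and Aebp1 (0.971). Mmp2 was most like S1pr2 (0.931), a sphingosine-1-phosphate receptor gene, Klf5 (0.904) and the fibulin gene Fbln1 (0.903). Timp2 was most like Atp2a2 (0.948), Mepce (0.947) and Eif3b (0.946). Timp3 was most like Gca (0.882), Acsl6 (0.877) and Kbtbd2 (0.875), with Gca at 0.603 and Kbtbd2 at 0.555 within controls alone. Timp4 was most like Nme4 (0.826), Ndp (0.771), which encodes norrin, and Mesd (0.761). Timp1 was most like Mbd5 (0.869), Aff4 (0.841) and Utrn (0.830), Mmp15 most like Gatad2a (0.868), Ephb3 (0.855) and Kpnb1 (0.841), and Mmp9 most like Nsd2 (0.886), Zfp318 (0.863) and Pofut1 (0.850).

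**Figure D5:**
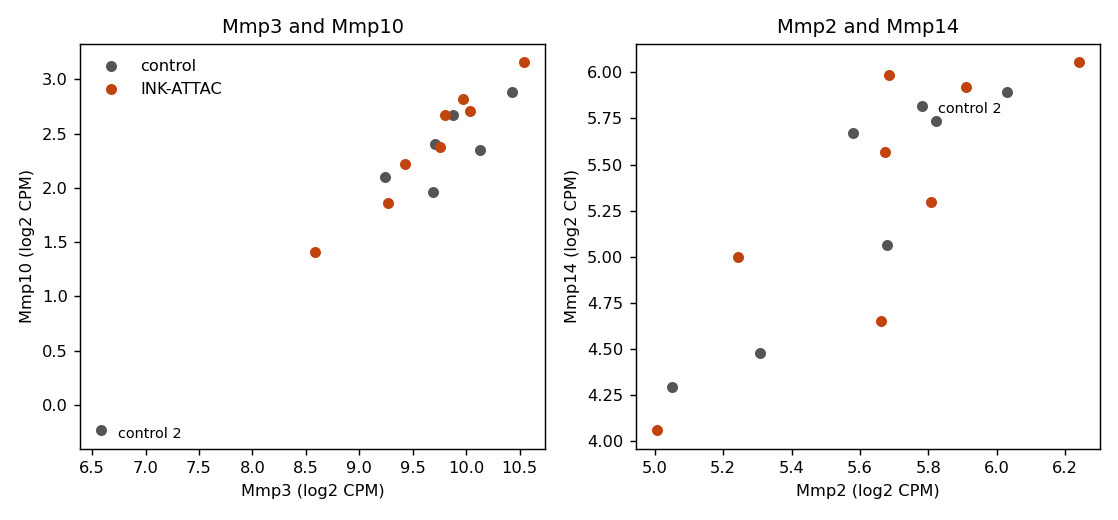
Log2 CPM of Mmp10 against Mmp3 (left) and of Mmp14 against Mmp2 (right) in the 7 control (grey) and 8 INK-ATTAC libraries (orange). Control 2 is at the lower left for Mmp3 and Mmp10 and among the other libraries for Mmp2 and Mmp14, and libraries of both groups are mixed in each panel.

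No gene of the lists around the 9 passed the test either. Of 18 other matrix metalloproteinases 12 were tested, 8 above 0 and 4 below (median log2 fold change 0.10), and none passed. Mmp8 had the lowest p, at 3.71 ± 0.91 CPM without the transgene (SD, n = 7) and 2.55 ± 0.51 CPM with it (SD, n = 8). Its log2 fold change was -0.54 (SE 0.17, unadjusted p = 0.00547, edgeR adjusted p = 1.00). Mmp23 (0.33), Mmp11 (0.19) and Mmp16 (0.24) followed. Among 24 tested activators and other inhibitors, 9 were above 0 and 15 below (median -0.04), with the hyaluronan receptor gene Cd44 (-0.21), the proteoglycan gene Spock2 (0.21) and Cd151 (0.25) among those of lowest p. Among 24 tested ADAM and ADAMTS proteases 9 were above 0 and 15 below (median -0.08), with Adam10 (-0.20), a sheddase gene, Adamts6 (-0.67), Adam12 (0.98) and Adam9 (-0.09) of lowest p.

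Matrix substrates, the collagens, laminins and other proteins that these proteases cut, had 14 of 31 tested genes above 0 and 17 below, with a median of -0.01. Efemp1 (0.17), Col4a5 (0.16), Lamb1 (0.06) and Fn1 (-0.27) had the lowest p, and none was under 0.05 before adjustment. Without INK-ATTAC 3 Efemp1 gave 0.049 and Col4a5 0.0376, without control 4 Lamb1 gave 0.018, and without control 6 Fn1 gave 0.0665. AP-1 and cytokine genes, known inducers of metalloproteinase transcription, had 5 of 16 tested genes above 0 and 11 below, with a median of -0.20. Il1b (-0.88, SE 0.35) and the AP-1 gene Junb (-0.53, SE 0.24) had an unadjusted p under 0.05, and Fosl2 (-0.42) and Fos (-0.58) followed. With the skeletal muscle level in the model Junb gave -0.215, Fosl2 -0.0654 and Fos -0.357, and 0 genes of this list had an unadjusted p under 0.05. The number was 1 with the sex-linked, rod, lens or fibroblast level in the model. It was higher than the 2 of the main fit in other alternatives. These included limma-voom (4), sample quality weights (5), 1 surrogate variable (4) and each replicate block (4). Leaving out 1 library also moved the number, for example to 3 without control 5 and to 1 without control 2, 3 or 4. None of the genes of these 5 lists passed with edgeR (adjusted p = 1.00 for each gene named here), and over all genes tested 8953 were above 0 and 9038 below.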

How the data were processed

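Per the labels' protocols, tissue went into TRIzol, NucleoSpin columns gave the RNA and SMARTer chemistry the cDNA. The submitters' processing notes name GRCm38 as build and bcl2fastq, DRAGEN, edgeR and limma as tools. The sources used here do not give versions, counting program, strand setting or annotation. The authors deposited raw counts per Ensembl gene (40757 entries, of which 276 repeats with identical counts were collapsed). The authors also deposited a comparison table with log2 CPM per library, log2 fold changes with limits, and p-values with adjusted p-values. The score columns of that deposited table, limma's t and B and a signed linear fold, per the file headers, were not used.

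Libraries were grouped by title. Counts were scaled with TMM and filtered with filterByExpr (17991 genes) in edgeR 4.0.16 (R 4.3.3). The main test was the two-sided quasi-likelihood F-test without covariates, Benjamini-Hochberg adjusted, threshold 0.05; SE is the absolute log2 fold change over the square root of F. No library repeated another of its group (lowest chi-square per gene of a pair 27.6). Exon lengths and positions came from GENCODE M21 on GRCm38, promoters from RefSeq on GRCm38.p6. Amplified reads without molecular identifiers limit what counting error covers.

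The members and lists were chosen with earlier results of these data known. The genes named were the 9 members, the 4 genes of lowest p of each of 5 pathway lists (1 of them is not reported here), the 3 genes most like each member and genes that overlap a member. The alternatives were DESeq2 1.42.0, RLE scaling (the DESeq2-type method), the table unfiltered or kept at CPM above 1 in 7 or more libraries, limma-voom (limma 3.58.1) with and without sample quality weights, 1 surrogate variable (sva 3.50.0), covariates for sex-linked, skeletal muscle, rod and lens levels, a block by title number and leaving out each library. A fibroblast covariate, a block by the number in the deposited library names, RLE scaling for correlations, and leaving out control 2 for correlations, levels and spread were chosen after seeing the data. The planned permutation test of TIMP shares is not given, since the shares are scores over chosen genes. The gene test and the permutation test were tested on simulated data.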

Additional observations from a re-analysis of the deposited data

Results flagged for a closer look

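In 30 sets of values (the 9 genes and 6 shares in each group) 3 held a library far from the rest of its group; by chance about 5% of such sets would. Mmp3 in control 2 was 6.59 log2 CPM, against 9.24 to 10.4 in the other controls. The share of Mmp3 among the 5 metalloproteinases, which rests on the same value, was 66.5% in control 2 against 93.4 to 97.4% in the other controls. The share of Timp4 among the 4 TIMPs was 0.587% in INK-ATTAC 1, against 0.277 to 0.39% in the other INK-ATTAC libraries.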

How the results depend on the processing

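No metalloproteinase or TIMP of the 9, and no gene of the 5 pathway lists, passed under any of the 29 alternatives. Over all genes, DESeq2 called 6 (758 at an unadjusted p under 0.05), sample quality weights 2 (1068) and a surrogate variable 1 (1325), and the other alternatives called 0. Timp3, Timp4 and Mmp9 kept their sign in every alternative that tested them. Mmp3 turned with the skeletal muscle (-0.69) and lens level (-0.0693), Timp2 with the lens level (0.0201), Mmp14 with sample quality weights (-0.105) and the replicate block by title number (-0.0277; 0.53 with the muscle level), and Fn1 with the muscle level (0.28). The cause was not tested.

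Leaving out 1 library gave ranges of -0.0406 to 0.135 for Mmp2, below 0 without control 5 (-0.03) or INK-ATTAC 6, and -0.14 to 0.24 for Mmp3, below 0 without control 2 or INK-ATTAC 1 (-0.09). For Mmp14 they gave -0.073 to 0.172, below 0 without control 1 (-0.06), control 5, INK-ATTAC 6 (-0.05), 7 (-0.04) or 8 (-0.02). For Mmp15 the range was -0.21 to 0.0069 (above 0 without control 3), for Timp1 -0.12 to 0.0049 (without control 6), and for Timp2 -0.13 to 0.0119 (without INK-ATTAC 3; 0.0045 without control 6). For Fn1 it was -0.54 to 0.0665 (above 0 without control 6) and for Cd151 -0.0039 to 0.29 (below 0 without INK-ATTAC 5).

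The numbers in the titles did not pair the libraries: deviations of same-numbered libraries correlated at -0.101 to 0.292, and 1 of 7 controls correlated best with the INK-ATTAC library of its own number. With that replicate block, which drops INK-ATTAC 8, 0 genes were called and 734 had an unadjusted p under 0.05, against 745 without it. The deposited library names carry other numbers. Pairing by these, chosen after seeing the data, gave correlations of -0.151 to 0.231 with 0 of 7 best with their own, and a replicate block that drops INK-ATTAC 1 called 0 genes with 758 at an unadjusted p under 0.05. Of the 9 genes Mmp9 had the fewest counts, 12 to 60 per library.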
